A study of Mus musculus with 6 samples.

Results

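Death receptors, tumor necrosis factor (TNF) ligands and TNF receptor-associated factors (TRAFs) were examined in hematopoietic stem cells (HSCs) with and without IRF1. The group comprised 10 genes picked by symbol, *Tnfsf10*, *Tnfrsf10b*, *Fas*, *Tnfrsf1a*, *Tnfrsf1b*, *Traf1*, *Traf2*, *Traf3*, *Traf6* and *Tnfaip3*, out of 26264 genes in the expression table. All 10 were found there, and all 10 passed the filter on low values (a mean normalized count of at least 10). TNF family ligands bind receptors on the cell surface. Receptors with a death domain can assemble a complex that activates caspases, while TRAF adaptors and ubiquitin chains carry the signal to NF-κB, which drives survival and inflammatory genes. In the bone marrow, TNF and related ligands are known as inflammatory signals that reach HSCs, and IRF1 is a transcription factor induced by interferons and TNF.

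Bulk RNA-seq compared untreated WT (C57Bl/6) mice with untreated mice lacking IRF1 in the whole body (*Irf1-/-*, B6.129S2-Irf1 tm1Mak/J), to ask which transcripts depend on this factor in HSCs. HSCs were sorted from the bone marrow of female mice at 8 weeks of age, with 1 library per mouse and 3 mice per genotype. Because every cell of the mutant mice lacks IRF1, effects of other cells on HSCs and effects within HSCs cannot be told apart. The libraries carry replicate numbers 2, 3 and 4 in both genotypes, and values are given in that order. Reads on genes were 59658080, 45332573 and 43267486 in WT HSCs and 43138521, 57281017 and 45129929 in *Irf1-/-* HSCs.

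*Irf1* itself, the gene that was targeted, had 10122, 11119.6 and 12058 normalized counts in WT HSCs and 9267, 9524 and 9287 in *Irf1-/-* HSCs. All *Irf1-/-* libraries lay below all WT libraries, yet by little (log2 fold change −0.24, SE 0.088, adjusted *P* = 0.170, limma). A count per gene does not show which exons the reads came from, so this value checks the genotype labels only in part. Fold changes here are *Irf1-/-* over WT on the scale of log2(normalized count + 1), and adjusted *P* values come from limma over 17404 genes. To be called, a gene needed both an adjusted *P* below 0.05 and a log2 fold change beyond 0.58 in either direction.

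The sorted cells expressed the HSC markers in both genotypes. All 10 listed markers, among them *Kit*, *Procr*, *Mecom* and *Slamf1*, passed the filter. Their summed normalized counts were 198369, 204031 and 185360 in WT HSCs and 196859, 220910 and 199794 in *Irf1-/-* HSCs, so the genotypes overlapped. *Kit* had the highest normalized counts of them (77902 to 88715). *Fgd5* was the 1 marker called, with 3918, 3818 and 3522 normalized counts in WT HSCs and 6752, 6881 and 6387 in *Irf1-/-* HSCs, which is a log2 fold change of 0.83 with an SE of 0.087 (limma, adjusted *P* = 9.13e-05), and it stayed called whichever library was left out.

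WT replicate 4 stood apart in some genes of neutrophils. It had 1033 normalized counts of *S100a8*, 1246 of *S100a9* and 46.3 of *Ly6g*, where the highest of the other 5 libraries had 110.0, 131 and 1.07. Some genes of other mature cells were also highest in it, such as *Siglech* (69.9), *Itgax* (49.5), *Prf1* (32.3) and *Cd3d* (52.7). Others, such as *Clec9a*, *Batf3* and *Cd8b1*, were not. Within the neutrophil and monocyte list, *Elane* (67.5), *Mpo* (355), *Itgam* (2228) and *Cd14* (162) were highest in *Irf1-/-* replicate 4. *Lyz2* (31462) was highest in *Irf1-/-* replicate 3, and *Csf1r* (385) in WT replicate 3. WT replicate 3 in turn was the highest library for *Ly6c2* (808) and *Alas2* (487). The part of these transcripts in the results was not tested, and values without WT replicate 4 or another library are given below where they change a result. Without WT replicate 4 limma called 305 genes higher and 265 lower, where it called 167 and 166 with all libraries, and 0 of the 10 genes either way.

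Levels of different genes were compared as normalized counts per kilobase of exon. *Tnfrsf1b* (3010 per kb, mean of 6 libraries) and *Tnfrsf1a* (2483 per kb), the receptors for TNF itself, led the order. They were followed by *Traf2* (870 per kb), *Tnfsf10* (596 per kb), *Traf6* (587 per kb), *Traf3* (418 per kb) and *Traf1* (260.1 per kb). *Tnfaip3* (188 per kb), *Fas* (166 per kb) and *Tnfrsf10b* (49.2 per kb) came last, against a median of 271 per kb over 14660 tested genes with a known length. Neighbours in this order overlapped between libraries for *Tnfrsf1b* and *Tnfrsf1a*, *Tnfsf10* and *Traf6*, *Traf1* and *Tnfaip3*, and *Tnfaip3* and *Fas*, while every other neighbouring pair was separated in all 6 libraries. *Tnfrsf1b* still exceeded *Tnfrsf1a* within each of the 6 libraries, whereas *Tnfsf10* exceeded *Traf6* in 3, *Traf1* exceeded *Tnfaip3* in 5 and *Tnfaip3* exceeded *Fas* in 4. With the longest transcript as the length, an alternative chosen after seeing the data, *Traf6* (749.8 per kb) came before *Tnfsf10* (629 per kb), and *Tnfrsf1b* (3010 per kb) and *Tnfrsf1a* (2992 per kb) were nearly level.

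**Figure D1:**
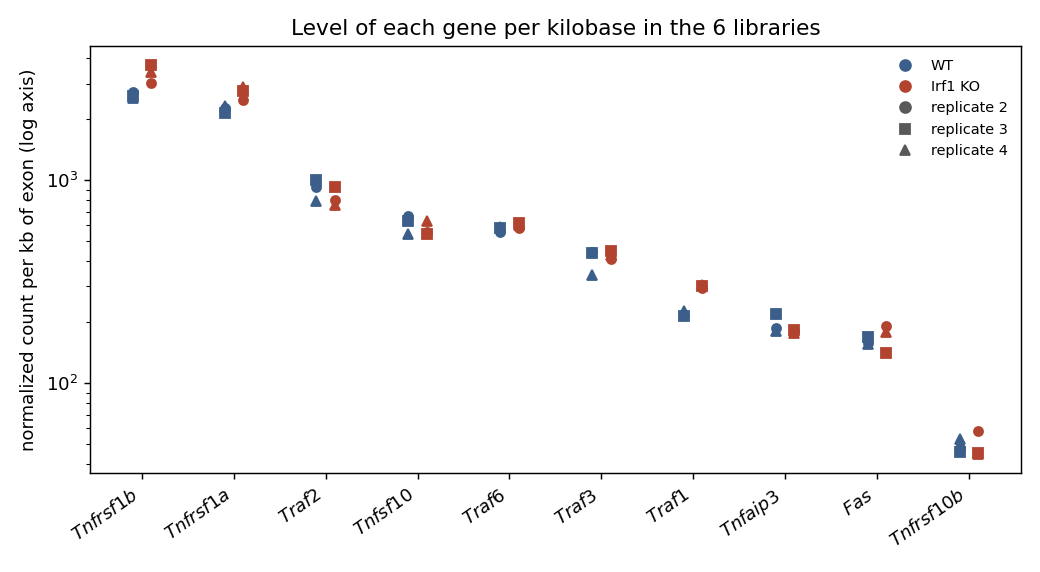
Normalized count per kilobase of exon (log axis) of the 10 genes, 1 point per library, with WT in blue, *Irf1-/-* in red and the marker shape giving the replicate number. The points fall from 3010 per kb on average for *Tnfrsf1b* to 49.2 per kb for *Tnfrsf10b*.

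*Tnfsf10* encodes TRAIL, a ligand that triggers apoptosis through death receptors. Its normalized counts were 3504, 3330.1 and 2877 in WT HSCs and 2932, 2862 and 3326 in *Irf1-/-* HSCs. The genotypes overlapped, with WT replicate 4 down among the *Irf1-/-* libraries and *Irf1-/-* replicate 4 up among the WT libraries. The log2 fold change was −0.089 (SE 0.10, adjusted *P* = 0.761, limma), with a 95% confidence interval from −0.31 to 0.14, and ran from −0.17 to −0.029 when a library was left out. *Tnfrsf10b* encodes the death receptor that binds TRAIL in mice. It had 152, 145 and 168 normalized counts in WT HSCs and 184, 143 and 142 in *Irf1-/-* HSCs, and the lowest library held 129 reads. The highest and the lowest value were both from *Irf1-/-* HSCs, so no difference was detectable at this depth (log2 fold change 0.0062, SE 0.25, adjusted *P* = 0.995, limma, 95% confidence interval −0.54 to 0.55).

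*Fas* encodes the receptor for Fas ligand, which binds FADD and caspase-8 through its death domain. It had 283, 304 and 281 normalized counts in WT HSCs and 345, 253 and 324 in *Irf1-/-* HSCs. The WT libraries lay close together, and the *Irf1-/-* libraries lay on both sides of them. The log2 fold change of 0.076 was smaller than its error (SE 0.20, adjusted *P* = 0.915 in limma, 95% confidence interval −0.35 to 0.50).

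The receptors for TNF both had higher values in *Irf1-/-* HSCs. *Tnfrsf1a* encodes TNF receptor 1, which carries a death domain and is the main route of TNF to NF-κB and to cell death. Its normalized counts were 5883, 5589 and 6057 in WT HSCs and 6439.9, 7197 and 7538 in *Irf1-/-* HSCs. Every *Irf1-/-* library was above every WT library, but the difference did not pass the adjusted threshold (log2 fold change 0.27, SE 0.089, unadjusted *P* = 0.00922 and adjusted *P* = 0.130, limma). *Tnfrsf1b* encodes TNF receptor 2, which has no death domain and recruits TRAF2. It had 10430.4, 9999 and 9707 normalized counts in WT HSCs and 11577, 14102 and 13141 in *Irf1-/-* HSCs. WT values were tight, and the lowest *Irf1-/-* library, replicate 2, stood nearest to them. The mean was 10046 ± 364 (SD, *n* = 3) in WT and 12940.1 ± 1274 in *Irf1-/-* HSCs, 1.29-fold higher (log2 fold change 0.36, SE 0.091, adjusted *P* = 0.0473, limma), which is past the adjusted threshold and short of the fold threshold. In bulk RNA, a change in the share of cells that express a gene and a change in RNA per cell cannot be told apart. For *Tnfrsf1b*, limma's adjusted *P* was 0.118 without *Irf1-/-* replicate 3, 0.203 without *Irf1-/-* replicate 4, 0.118 without WT replicate 2, 0.124 without WT replicate 3 and 0.0621 without WT replicate 4.

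TRAF adaptors link these receptors to kinases and ubiquitin ligases. *Traf1*, itself a known NF-κB target, encodes the family member without a RING domain, which pairs with TRAF2. It had 1099, 1091 and 1159 normalized counts in WT HSCs and 1492, 1538 and 1555 in *Irf1-/-* HSCs. Both genotypes were tight and lay far apart, with the lowest *Irf1-/-* library well above the highest WT library. Its mean was 1116 ± 37.1 (SD, *n* = 3) in WT and 1529 ± 32.4 in *Irf1-/-* HSCs, 1.37-fold higher (log2 fold change 0.45, SE 0.11, adjusted *P* = 0.0356 by limma). The estimate lay under the fold threshold, so *Traf1* was not called, and its 95% confidence interval ran from 0.22 to 0.69. Limma's adjusted *P* for *Traf1* was 0.0933, 0.0732 and 0.155 without *Irf1-/-* replicates 2, 3 and 4, and 0.130 and 0.122 without WT replicates 2 and 3, while its log2 fold change stayed between 0.44 and 0.48 in all 6 fits that left out a library.

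*Traf2* encodes the adaptor that brings the ligases BIRC2 and BIRC3 to TNF receptors. It had 4753, 5129 and 4046 normalized counts in WT HSCs and 4072, 4758 and 3866 in *Irf1-/-* HSCs. In both genotypes replicate 3 was high and replicate 4 low, and the ranges overlapped (log2 fold change −0.13, SE 0.11, adjusted *P* = 0.637, limma). Leaving out a library moved it between −0.23 and −0.057. *Traf3*, which together with TRAF2 keeps the kinase NIK low and restrains the noncanonical NF-κB pathway, had 3299.9, 3244 and 2539 normalized counts in WT HSCs and 3044, 3321 and 3185 in *Irf1-/-* HSCs. WT replicate 4 was the low library, and the others lay together (log2 fold change 0.081, SE 0.11, adjusted *P* = 0.804, limma). Without that library the log2 fold change was −0.041. *Traf6*, a ubiquitin ligase that serves Toll-like and interleukin-1 receptors, had 4375, 4588 and 4629 normalized counts in WT HSCs and 4570.1, 4849 and 4743 in *Irf1-/-* HSCs. Its values were close in both genotypes, and its interval, from −0.12 to 0.24, left room only for a small change (log2 fold change 0.059, SE 0.084, adjusted *P* = 0.813, limma).

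*Tnfaip3* encodes A20, a ubiquitin-editing enzyme that is induced by NF-κB and shuts the pathway off. It had 1345, 1594 and 1309 normalized counts in WT HSCs and 1313, 1325 and 1282 in *Irf1-/-* HSCs. WT replicate 3 was the high library, and the other 5 lay within a narrow band shared by both genotypes (log2 fold change −0.11, SE 0.12, adjusted *P* = 0.722, limma). Without that library the log2 fold change of *Tnfaip3* was −0.023.

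**Figure D2:**
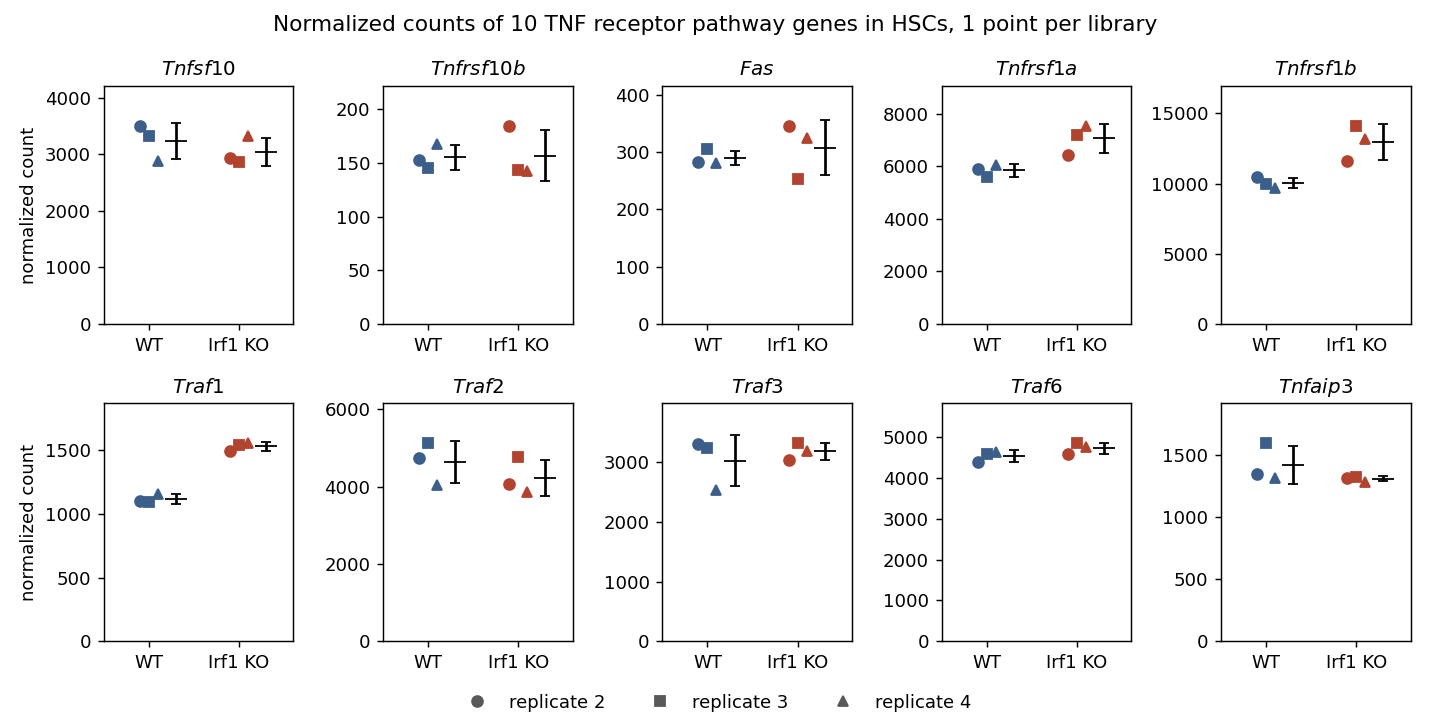
Normalized counts of the 10 genes, 1 point per library (marker shape gives the replicate number), with the mean and SD of 3 mice in black beside them. *Tnfrsf1a*, *Tnfrsf1b* and *Traf1* have all *Irf1-/-* points above all WT points, and the ranges of the other 7 genes overlap.

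None of the 10 genes was called by limma, edgeR or DESeq2, beside 0.96% of all tested genes called higher and 0.954% called lower by limma. An adjusted *P* under 0.05 without regard to fold was reached by 2 of 10 (*Traf1* and *Tnfrsf1b*), where 3.22% of all genes reached it, and by 3 of 10 in DESeq2, with *Tnfrsf1a* added (adjusted *P* = 0.0391, DESeq2), where 7.64% of all genes reached it with that tool. An unadjusted *P* under 0.05 was reached by 3 of 10, against 16.5% of all genes, and the same 3 had no overlap between genotypes, against 19.9%. The median log2 fold change was 0.068 over the 10 genes and −0.0028 over all 17404. The median of the 10 was 0.034 without *Irf1-/-* replicate 2, 0.090 without WT replicate 3 and 0.036 with median centring. A difference between this group and the rest of the transcriptome was not tested.

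Among 24 other receptors of the superfamily, 23 passed the filter, 1 was called higher and 0 were called lower, with a median log2 fold change of 0.029 (0.031 to 0.093 when a library was left out). The called gene was *Tnfrsf25*, which encodes death receptor 3. It had 161, 141 and 127 normalized counts in WT HSCs and 375, 275 and 303 in *Irf1-/-* HSCs. All *Irf1-/-* values exceeded all WT values, and the mean was 2.22-fold higher (log2 fold change 1.14, SE 0.23, adjusted *P* = 0.0151 by limma). Its adjusted *P* was 0.0878 and 0.0630 when *Irf1-/-* replicate 2 or 4 was left out (limma). The next smallest *P* was that of *Tnfrsf22*, a decoy receptor for TRAIL, with 743, 931 and 713 normalized counts in WT HSCs and 945, 1186 and 909 in *Irf1-/-* HSCs. The ranges overlapped (log2 fold change 0.35, adjusted *P* = 0.265, limma), and reads could be shared with its close copy *Tnfrsf23*. *Cd27*, a costimulatory receptor of lymphocytes and multipotent progenitors, was the most abundant at 3563 per kb and showed no detectable difference (log2 fold change 0.10, adjusted *P* = 0.718, limma).

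Of 17 other ligands, 12 passed the filter, and limma, edgeR and DESeq2 called 0 of them in either direction (median log2 fold change 0.081, and −0.067 to 0.12 when a library was left out). None had an unadjusted *P* under 0.05 in limma, while 1 did in edgeR and 1 in DESeq2. The smallest *P* in limma was that of *Tnfsf11*, the ligand of RANK, with 74.1, 58.6 and 72.1 normalized counts in WT HSCs and 219, 108 and 72.7 in *Irf1-/-* HSCs. *Irf1-/-* replicate 2 stood far above the others and replicate 3 less so, while replicate 4 was near the WT libraries (log2 fold change 0.81, SE 0.40, adjusted *P* = 0.332, limma), and without replicate 2 the log2 fold change was 0.38. *Ltb*, which encodes lymphotoxin β, was the most abundant ligand at 5789 per kb (log2 fold change 0.17, adjusted *P* = 0.397, limma). *Tnf* had 31.3, 119 and 68.9 normalized counts in WT HSCs and 41.6, 13.0 and 60.2 in *Irf1-/-* HSCs, and the genotypes overlapped. *Fasl*, the ligand of FAS, was close to the limit of detection, with normalized counts of 0, 0 and 1.08 in WT HSCs and 4.26, 4.32 and 2.08 in *Irf1-/-* HSCs, which is 12 reads in all. With 3 reads as the floor of a library (2.47 to 3.38 normalized counts), no fold is given, and permuting the 6 libraries exactly gave a two-sided *P* of 0.1, the lowest that 3 mice against 3 allow. *Lta*, *Cd40lg*, *Cd70* and *Tnfsf18* were also under the filter.

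The other TRAFs and TRAF-binding genes numbered 13, all tested, with 0 called higher and 1 called lower (median log2 fold change 0.0099, and −0.012 to 0.0093 when a library was left out). The called gene, *Trafd1*, encodes an interferon-inducible zinc finger protein known to dampen TRAF6 signaling. It had 5216, 5252 and 5418 normalized counts in WT HSCs and 3374, 3081 and 3200.5 in *Irf1-/-* HSCs. Values within each genotype were close, and the genotypes were far apart (log2 fold change −0.72, SE 0.086, adjusted *P* = 0.000324, limma). *Trafd1* was called in each of the 6 fits that left out a library. *Map3k14*, which encodes NIK, had 1176, 929.7 and 1064 normalized counts in WT HSCs and 1483, 1423 and 1529 in *Irf1-/-* HSCs. It was higher in every *Irf1-/-* library and short of the fold threshold (log2 fold change 0.49, SE 0.12, adjusted *P* = 0.0427, limma). *Map3k14* lost its adjusted *P* under 0.05 when any *Irf1-/-* library was left out (0.127, 0.0681 and 0.177 for replicates 2, 3 and 4, limma) or when WT replicate 2 (0.0523) or 3 (0.175) was. *Traf7* was the most abundant of the list at 3007 per kb (log2 fold change −0.073, adjusted *P* = 0.792, limma, and −0.14 to −0.0079 when a library was left out).

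Downstream of the receptors, fold changes in the signaling complexes were small. In the TNF receptor 1 complex with its linear ubiquitin machinery, 0 of 18 genes were called by limma, edgeR or DESeq2, and 0 had an unadjusted *P* under 0.05 with any of these tools. The median log2 fold change was −0.0083 (−0.061 to 0.043 when a library was left out), and single values ran from −0.25 to 0.14. *Chuk*, which encodes the kinase IKKα, had the smallest *P* (log2 fold change −0.25, adjusted *P* = 0.406, limma). It depended on single libraries, with −0.43 (adjusted *P* = 0.0295, limma) once the low WT replicate 4 was left out and −0.14 once WT replicate 2 was. The next smallest *P* was that of *Xiap*, an inhibitor of caspases (log2 fold change −0.24, adjusted *P* = 0.470, limma). *Rbck1*, a subunit of the linear ubiquitin ligase, was the most abundant at 4099 per kb (log2 fold change −0.12, adjusted *P* = 0.561, limma).

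In the list of the death-inducing complex, 0 of 12 genes were called by limma, edgeR or DESeq2, and 2 had an unadjusted *P* under 0.05 in each of these tools. The median log2 fold change was −0.010, and its sign turned with the library left out (−0.089 to 0.043). *Bid*, which carries the signal of caspase-8 to mitochondria, had 3780.5, 4193 and 3564 normalized counts in WT HSCs and 2892, 3351 and 3262 in *Irf1-/-* HSCs. All *Irf1-/-* libraries lay below all WT libraries, without passing the adjusted threshold (log2 fold change −0.28, SE 0.099, adjusted *P* = 0.161 by limma).

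The A20 partners were a small list of 6, of which 5 had positive fold changes (median log2 fold change 0.16, and 0.13 to 0.20 when a library was left out). None was called by limma, edgeR or DESeq2, but 3 had an unadjusted *P* under 0.05 and 2 an adjusted *P* under 0.05, all higher in *Irf1-/-* HSCs. *Tnip1*, *Tnip2* and *Tnip3* encode the ABIN proteins, which bind A20 and ubiquitin and restrain NF-κB. *Tnip1* had 2998, 3176 and 2936 normalized counts in WT HSCs and 4114, 4087 and 4278 in *Irf1-/-* HSCs. Its genotypes were far apart relative to the spread within each (log2 fold change 0.45, SE 0.088, adjusted *P* = 0.0117, limma). *Tnip3* had 2509.9, 2921 and 2982 normalized counts in WT HSCs and 3423, 4103 and 4241 in *Irf1-/-* HSCs. Replicate 2 was the lowest of each genotype, and no values overlapped (log2 fold change 0.48, SE 0.11, adjusted *P* = 0.0279, limma). *Tnip2* was also higher in every *Irf1-/-* library, without passing the adjusted threshold (log2 fold change 0.21, adjusted *P* = 0.241, limma). Without *Irf1-/-* replicate 4 or WT replicate 2 the adjusted *P* of *Tnip1* was 0.0768 and 0.0582, and that of *Tnip3* was 0.146 and 0.133 (limma). *Tnip3* also had 0.0782 without *Irf1-/-* replicate 3 and 0.0564 without WT replicate 3. *Tax1bp1*, the most abundant partner at 3037 per kb, showed no detectable difference (log2 fold change −0.097, adjusted *P* = 0.688, limma).

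The position of *Tnip1* bears on its value. In GRCm38.p6 its start site lies on chromosome 11, 1193 kb from that of *Irf1*. The mutant stock name, B6.129S2, places the targeted allele on 129 sequence moved into C57Bl/6, so loss of IRF1 and 129 sequence around the locus cannot be told apart for a close neighbour. *Map3k14* is on the same chromosome but far from *Irf1*. Of the 10 genes, 9 have a promoter entry in this build, and 0 of these are on chromosome 11.

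Among 20 NF-κB target genes, 1 was called higher and 1 lower, 7 had an unadjusted *P* under 0.05, and the median log2 fold change was 0.075 (0.041 to 0.097 when a library was left out). *Bcl3*, an atypical IκB that binds NF-κB p50 and p52 in the nucleus, had 1822, 1757 and 1610.5 normalized counts in WT HSCs and 2484, 3419 and 3208 in *Irf1-/-* HSCs. It was higher in every *Irf1-/-* library and was called in each of the 6 fits that left out a library (log2 fold change 0.80, SE 0.12, adjusted *P* = 0.00251, limma). *Cxcl10*, a chemokine gene that also answers to interferons, had 272, 81.1 and 723 normalized counts in WT HSCs and 34.1, 24.2 and 47.8 in *Irf1-/-* HSCs. WT libraries were widely spread, though even the lowest exceeded all *Irf1-/-* libraries (log2 fold change −2.85, SE 0.59, adjusted *P* = 0.0179 by limma). Leaving out WT replicate 4 gave a log2 fold change of −2.09 and leaving out WT replicate 3 gave −3.66, and its adjusted *P* was 0.0704 and 0.0611 when *Irf1-/-* replicate 2 or 3 was left out (limma). *Ier3*, an immediate early gene, had 2266, 2043 and 2386 normalized counts in WT HSCs and 3303, 2706 and 3505 in *Irf1-/-* HSCs. It was higher in every *Irf1-/-* library and short of the fold threshold (log2 fold change 0.50, SE 0.11, adjusted *P* = 0.0285 by limma). When *Irf1-/-* replicate 2 or 4 was left out, its adjusted *P* was 0.120 and 0.153, and it was 0.0732 and 0.116 when WT replicate 2 or 3 was (limma). Without *Irf1-/-* replicate 3, its lowest *Irf1-/-* library, *Ier3* was called (log2 fold change 0.61, adjusted *P* = 0.0139, limma). *Nfkbia*, which encodes IκBα and was the most abundant target at 5129 per kb, showed no detectable difference. Its log2 fold change was −0.016 (adjusted *P* = 0.958, limma), and 0.031 after quantile normalization.

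Of 15 p53 target genes, a list that bears on *Fas* and *Tnfrsf10b* because both are known p53 targets, limma called 0 in either direction and 5 had an unadjusted *P* under 0.05. edgeR called 0 and DESeq2 called 2, *Cdkn1a* and *Phlda3*, both higher. When a library was left out, limma called 1 higher without WT replicate 2 (*Phlda3*, log2 fold change 0.99, adjusted *P* = 0.0494), 1 lower without WT replicate 4 (*Gtse1*) and 0 in the other 4 fits. *Sesn2*, a stress-induced sestrin, had 1633, 1646 and 2008 normalized counts in WT HSCs and 2377, 2329 and 2333 in *Irf1-/-* HSCs, which is a log2 fold change of 0.42 with an SE of 0.11 (limma, adjusted *P* = 0.0525). *Phlda3*, a repressor of AKT, had 269.9, 195 and 165 in WT HSCs and 335, 346 and 392 in *Irf1-/-* HSCs, which is a log2 fold change of 0.79 with an SE of 0.22 (limma, adjusted *P* = 0.0758). In both genes all *Irf1-/-* libraries were above all WT libraries, while the median over the list was −0.012 (−0.033 to 0.020 when a library was left out). Without WT replicate 4 the adjusted *P* of *Sesn2* was 0.0138 and that of *Sesn1* 0.0226 (limma), both short of the fold threshold. *Pmaip1*, which encodes a BH3-only protein, was the 1 gene of the 5 with lower mean values in *Irf1-/-* HSCs, at 11.5, 15.8 and 28.0 normalized counts in WT HSCs and 11.7, 0.864 and 0 in *Irf1-/-* HSCs. Its genotypes overlapped, and 2 of its values lay under the floor of 3 reads, so no fold is given (unadjusted *P* = 0.0233 and adjusted *P* = 0.209 in limma, unadjusted *P* = 0.0610 in edgeR and 0.0766 in DESeq2). *Sesn1*, the most abundant of the list at 3744 per kb, had a log2 fold change of 0.31 and passed neither threshold (adjusted *P* = 0.104, limma).

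**Figure D3:**
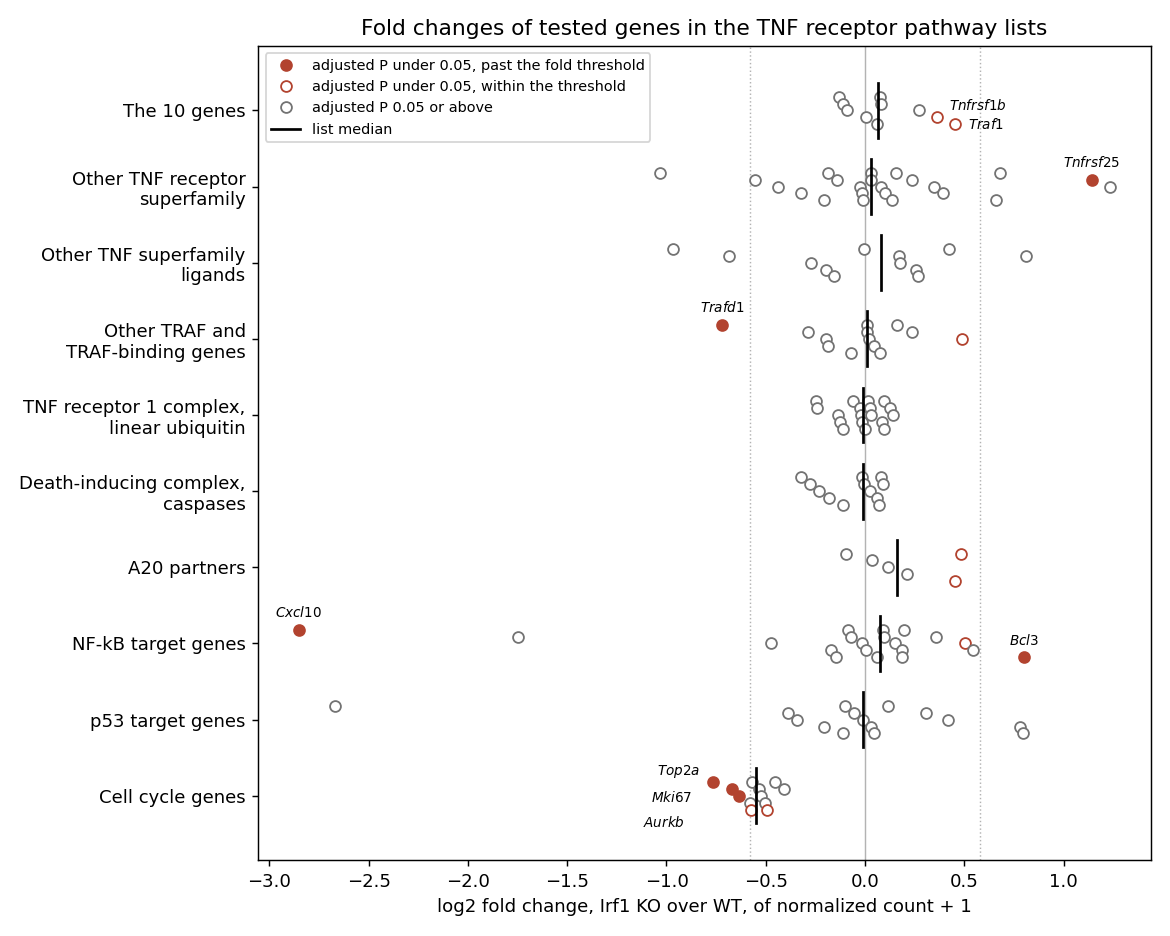
Log2 fold change (*Irf1-/-* over WT, of normalized count + 1) of each tested gene by list, with the median of each list as a black line and dotted lines at −0.58 and 0.58. Filled red points (*Tnfrsf25*, *Trafd1*, *Bcl3*, *Cxcl10*, *Top2a*, *Mki67* and *Aurkb*) are called, and open red points have an adjusted *P* under 0.05 within the fold threshold.

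Cell cycle genes had lower values in *Irf1-/-* HSCs. All 12 had negative fold changes and an unadjusted *P* under 0.05, with a median log2 fold change of −0.55 (−0.68 to −0.35 when a library was left out). An adjusted *P* under 0.05 was reached by 5, limma called 3 lower (*Top2a*, *Mki67* and *Aurkb*), and 7 of the 12 had no overlap between genotypes. Without the trend limma called 0, with an adjusted *P* under 0.05 in 0 and an unadjusted *P* under 0.05 in 6. *Top2a*, a topoisomerase of dividing cells and the most changed of them, had 13177, 12858 and 9810.1 normalized counts in WT HSCs and 7874, 8285 and 5166 in *Irf1-/-* HSCs. Replicate 4 was the lowest in each genotype, and the genotypes did not overlap (log2 fold change −0.77, SE 0.16, adjusted *P* = 0.0177, limma). *Mki67* (log2 fold change −0.67, adjusted *P* = 0.0427, limma) and *Aurkb* (−0.63, adjusted *P* = 0.0368, limma) followed, and *Ccnb2* was the most abundant at 3355 per kb (−0.53, adjusted *P* = 0.0792, limma). Without *Irf1-/-* replicate 4, WT replicate 2 or WT replicate 3, 0 of the 12 were called, and without WT replicate 4 there were 8. In those first 3 fits limma's adjusted *P* was 0.0525, 0.0571 and 0.0652 for *Top2a*, 0.166, 0.146 and 0.127 for *Mki67*, and 0.141, 0.112 and 0.134 for *Aurkb*, and it was 0.125 for *Mki67* without *Irf1-/-* replicate 2 and 0.0571 for *Aurkb* without *Irf1-/-* replicate 3. The part of these differences in the values of *Traf1*, *Tnfrsf1b* and their relatives was not tested.

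Of 8 marker lists of other cells, 3 had sums that did not overlap between genotypes. The megakaryocyte and platelet list (8 genes, 7 tested, 0 called higher and 2 called lower, *Pf4* and *Gp1ba*) summed to 64767, 80071 and 62339 normalized counts in WT HSCs and to 57813, 40752 and 53969 in *Irf1-/-* HSCs. *Itga2b* had the highest mean normalized count of this list, without regard to length. *Pf4* was called in all 6 fits that left out a library, and *Gp1ba* was not without *Irf1-/-* replicate 2 (adjusted *P* = 0.0634), *Irf1-/-* replicate 3 (0.0590) or WT replicate 3 (0.0759, limma). The erythroid list (8 genes, 4 tested, 1 called lower, *Klf1*) summed to 3755, 4315 and 3064 in WT HSCs and to 2959, 2438 and 2786 in *Irf1-/-* HSCs. *Klf1* was not called without *Irf1-/-* replicate 2 (adjusted *P* = 0.0576) or 3 (0.0700) or WT replicate 2 (0.119) or 3 (0.107, limma). *Epor* had the highest mean normalized count of the erythroid list, and *Hba-a1*, *Hba-a2*, *Hbb-bs* and *Hbb-bt*, which define red cells, were at 0 in all 6 libraries. Reads that fit several of these near-identical copies may not have been counted, so these zeros do not show that globin RNA was absent, and *Alas2* (35.2 to 487) was detected in every library. The endothelial and stromal list (8 genes, 8 tested, 0 called) summed to 3439.8, 3594 and 3537 in WT HSCs and to 5191, 4996 and 5063 in *Irf1-/-* HSCs, with *Emcn* the highest by mean normalized count. *Emcn* lay just short of the fold threshold (log2 fold change 0.576, adjusted *P* = 0.0101, limma). *Emcn* and *Pdgfrb* (0.51, adjusted *P* = 0.0638, limma) were higher in every *Irf1-/-* library, and the other genes of this list overlapped between genotypes. HSCs themselves are known to express *Itga2b*, *Vwf* and *Emcn*. In these 3 lists the genotypes did not overlap (two-sided *P* = 0.1 by exact permutation, as low as 3 mice against 3 can give), and their part in the higher values of *Tnfrsf1a*, *Tnfrsf1b* and *Traf1* was not tested. Sums overlapped between genotypes for B cell (2796 to 3207), T cell (1111 to 1411), NK cell (2725 to 3784), dendritic cell (3320 to 4558) and neutrophil and monocyte genes (24451 to 33719), with none called and with *Gzma* at 0 in all libraries. *Lyz2* made up most of the last sum, which therefore does not show the high *S100a8*, *S100a9* and *Ly6g* of WT replicate 4.

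The genes whose log2 values over the 6 libraries tracked *Traf1* most closely, among 13366 genes with a mean of at least 50, were *Bace1* (Pearson's *r* = 0.996), *Fam43a* (0.994), *Snx20* (0.993), *Gm5817* (0.993) and *Acot1* (0.991). *Bace1*, which encodes β-secretase, had 2079.5, 2060.1 and 2277 normalized counts in WT HSCs and 2972, 3056 and 3232 in *Irf1-/-* HSCs. Of these 5, *Fam43a* (log2 fold change 0.64, adjusted *P* = 0.00104, limma) and *Acot1* (0.70, adjusted *P* = 0.0153, limma), whose reads could be shared with other *Acot* genes, were called higher. *Acot1* was not called without *Irf1-/-* replicate 4 (adjusted *P* = 0.0810), WT replicate 2 (0.0638) or WT replicate 3 (0.0579), while *Fam43a* was called in all 6 fits that left out a library (limma). For *Traf2*, the member with the smallest *P* among those lower in *Irf1-/-* HSCs, the closest genes were *Ccnd3* (0.998), *Get3* (0.997), *Ifi35* (0.997), *Acp6* (0.996) and *Yaf2* (0.996). None of these 5 was called, and all 5 repeated the high replicate 3 and low replicate 4 of *Traf2* in both genotypes. With 6 libraries such values are common, since 510 genes had *r* above 0.9 with *Traf1* and 669 with *Traf2*, and they are given as a description.

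The promoters were searched on both strands for letters known from IRF sites, AANNGAAA and GAAANNGAA, which can overlap each other, and from NF-κB sites, GGANTTTCC. The RefSeq promoters of GRCm38.p6, from 250 bases before to 50 after each start site, matched 9 of the 10 genes. AANNGAAA was found in 4 of the 9 (*Fas*, *Tnfrsf1b*, *Tnfsf10* and *Tnfaip3*), beside 26.7% of all 27025 genes with an entry and 22.0% of the 13682 tested ones (23.9% of all 32851 promoters, since a gene can have several). GAAANNGAA was found in 1 (*Tnfrsf1b*), beside 9.76% of all and 8.76% of tested genes (8.56% of promoters), and GGANTTTCC in 1 (*Tnfaip3*), beside 1.45% and 1.54% (1.25% of promoters). None of the 3 patterns was found for *Traf1*, *Traf2*, *Traf3*, *Traf6* or *Tnfrsf1a*, which says only that these letters are not in this window. Among genes called lower, 46.2% of 117 with an entry held AANNGAAA and 25.6% held GAAANNGAA, and among genes called higher 28.7% and 9.84% of 122 did. GGANTTTCC was held by 5.13% of the genes called lower (6 genes) and 1.64% of those called higher (2 genes). These shares are to be read beside those of tested genes above. A match describes the sequence and does not show binding.

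The stretches below are shown because they carry these letters next to the start sites of genes that were not called lower in *Irf1-/-* HSCs, with *Cxcl10*, which was called lower, for comparison. Each runs 5′ to 3′ on the strand of the gene and ends at the last base before its start site, and capitals mark the matches. They are chr3:27316977-27317076 (plus strand) for *Tnfsf10*, chr4:145246871-145246970 (minus strand) for *Tnfrsf1b*, chr10:19015411-19015510 (minus strand) for the first of 2 start sites of *Tnfaip3*, and chr5:92348890-92349139 (minus strand) for *Cxcl10*, from RefSeq (GRCm38.p6).
Tnfsf10: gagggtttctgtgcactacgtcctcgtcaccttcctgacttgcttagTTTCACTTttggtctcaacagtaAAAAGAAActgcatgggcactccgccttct
Tnfrsf1b: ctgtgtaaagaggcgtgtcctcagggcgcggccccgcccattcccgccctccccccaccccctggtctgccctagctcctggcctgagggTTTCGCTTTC
Tnfaip3: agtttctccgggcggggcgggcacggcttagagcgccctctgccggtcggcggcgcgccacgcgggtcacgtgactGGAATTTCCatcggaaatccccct
Cxcl10: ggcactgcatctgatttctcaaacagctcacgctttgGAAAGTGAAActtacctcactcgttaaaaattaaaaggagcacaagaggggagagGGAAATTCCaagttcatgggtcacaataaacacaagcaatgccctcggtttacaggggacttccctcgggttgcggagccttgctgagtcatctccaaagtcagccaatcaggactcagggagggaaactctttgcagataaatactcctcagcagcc
*Tnfsf10* held AANNGAAA at 2 places, beginning 53 and 30 bases before the start site. In *Tnfrsf1b* the IRF patterns overlapped in the last 10 bases before the start site, and in *Tnfaip3* GGANTTTCC began 24 bases before it. In *Cxcl10* the IRF patterns overlapped from 213 bases before the start site, and the NF-κB letters began 158 bases before it. Other listed genes called lower differed from *Cxcl10*. *Trafd1*, at either of its start sites, and *Mki67* held none of these patterns in the window searched, and *Top2a* held only AANNGAAA.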

How the data were processed

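The authors deposited a table of normalized counts, and the signal analyzed here is that count per gene and library. According to the submitters' processing notes, reads were trimmed with Trim Galore, aligned to mm39 with HISAT2, counted with htseq-count and scaled with DESeq2 size factors (versions not given). The strand setting was not stated. No column of the table was left unused.

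Values were taken as log2(normalized count + 1). Genes with a mean of at least 10 were fitted in limma 3.58.1 with a trend (R 4.3.3), and *P* values were adjusted by the Benjamini-Hochberg method over 17404 genes. The pseudocount understates fold changes of low genes. limma called 167 genes higher and 166 lower. Whole reads were recovered from the normalized counts for 100% of values within a tolerance of 0.02 reads. On them edgeR 4.0.16 called 165 higher and 162 lower, and DESeq2 1.42.0 called 286 and 207. Duplicate or shared libraries were looked for by the mean chi-square per gene between libraries of a genotype (16.2 to 29.8). *P* values measure spread between mice, taking 1 library per mouse from the labels and the paper.

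Exon lengths were from GENCODE vM1 (NCBIM37) and promoters from RefSeq (GRCm38.p6), and both builds differ from mm39. The genes and lists were chosen with earlier results of these data known. In each pathway list the called genes are named, with the 2 smallest *P* values where fewer than 2 were called, and the most abundant gene per kilobase, except in the list of the death-inducing complex, where only *Bid* is named. *Ier3*, *Tnip2*, *Cdkn1a*, *Pmaip1*, *Gtse1*, *Tnf*, *Fasl* and the single marker genes were picked after their values were seen. Alternatives were other pseudocounts and filters, median centring, quantile normalization, no trend, no minimum fold, a replicate block, omission of each library, and the longest transcript as length, the last chosen after seeing the data. The code was tested on simulated data. Figures were made in Python 3.11.15 with matplotlib 3.10.9.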

Additional observations from a re-analysis of the deposited data

How the results depend on the processing

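The 10 genes held 0 calls in every fit that left out a library. Over all genes those fits called 83 to 305 higher and 105 to 265 lower. Without the trend limma called 7 higher and 33 lower, with 0 of the 10 genes under an adjusted *P* of 0.05, and adjusted *P* values of 0.158 for *Traf1*, 0.311 for *Tnfrsf1b*, 0.0608 for *Trafd1*, 0.171 for *Bcl3*, 0.302 for *Cxcl10*, 0.0975 for *Tnfrsf25*, 0.164 for *Tnip1*, 0.280 for *Tnip3*, 0.238 for *Map3k14*, 0.278 for *Ier3*, 0.317 to 0.365 for *Top2a*, *Aurkb* and *Mki67*, 0.123 for *Acot1*, 0.0980 for *Fam43a*, 0.0511 for *Fgd5*, 0.238 for *Pf4*, 0.259 for *Gp1ba* and 0.316 for *Klf1*. Without a filter the adjusted *P* of *Tnfrsf1b* was 0.0655 (limma). DESeq2 called 286 higher and 207 lower. With no minimum fold, 301 genes were higher and 260 lower, and 2 of the 10 genes were higher. Median centring gave 149 higher and 196 lower.

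Signs turned for genes and list medians near 0. Quantile normalization gave log2 fold changes of −0.0082 for *Fas*, −0.094 for *Tnfrsf10b* and 0.031 for *Nfkbia*, and median centring gave −0.025 for *Tnfrsf10b*. Leaving out a library gave −0.014 to 0.21 for *Fas*, −0.12 to 0.070 for *Tnfrsf10b*, −0.041 to 0.15 for *Traf3* and −0.049 to 0.0028 for *Nfkbia*.

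A replicate block, pairing libraries of the same number, called 219 higher and 196 lower, with 2 of the 10 genes under an adjusted *P* of 0.05, 0 called, and 4 cell cycle genes called. Libraries were also correlated between genotypes after the mean of the genotype was subtracted from the log2 values of each gene. For libraries of the same number, the correlation of these deviations was −0.094, 0.25 and 0.15 for numbers 2, 3 and 4. On the same deviations, *Irf1-/-* replicate 2 correlated best with WT replicate 4.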
